A study of Mus musculus with 12 samples.

Results

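The microRNAs (miRNAs) of the miR-199 and miR-214 group were examined in quadriceps muscle of mice lacking cofilin-2. They are the rows of the array table named miR-199a, miR-199b or miR-214, with either arm of the hairpin kept. The rule uses names alone, and it was set with earlier results of these data known. There were 5 of them among 1096 miRNA names: mmu-miR-199a-3p, mmu-miR-199a-5p, mmu-miR-199b*, mmu-miR-214 and mmu-miR-214*, written below without the mouse prefix mmu. A star names the arm of a hairpin that was first found at the lower level. The groups were 6 wild-type mice (WT1 to WT6) and 6 cofilin-2 null mice (Cfl2-KO, called KO1 to KO6), all of strain C57Bl/6 and taken at postnatal day 7, with quadriceps as the tissue and each mouse as its own sample. The paper describes 6 pairs, each of a KO mouse and a WT littermate, and neither the labels nor the methods say whether a number marks a litter. The main tests therefore did not use the pairs. The array holds no probe for Cfl2 itself, and the genotypes rest on the labels. The samples are whole muscle, so that fewer cells of a type and less RNA per cell cannot be told apart in any value below.

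Cofilin-2 is the muscle form of a family of proteins that bind actin and remodel its filaments, and its loss causes a myopathy with nemaline bodies. miRNAs are short RNAs that pair through their seed, the bases near their 5′ end, with messenger RNAs and lower the protein made from them. miR-199a and miR-214 are made from a long non-coding RNA, Dnm3os, that is transcribed on the strand opposite to the dynamin gene Dnm3. They are known as mesenchymal miRNAs, being abundant in fibroblasts and other connective tissue cells and activated by the transcription factor Twist1. miR-214 is also known in muscle for lowering Ezh2, a repressor of muscle genes in myoblasts, and miR-199a-5p for its rise in fibrosis and in dystrophic muscle. Paralogous hairpins lie in the genes of other dynamins.

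The mature sequences from RefSeq are shown because they decide which members an array probe can tell apart and which messages each can pair with. Of the 5 members, 4 matched a mature entry of the RefSeq table for GRCm38.p6, with miR-214 taken as its 3p arm and miR-214* as its 5p arm. Capitals mark the seed, bases 2 to 8 from the 5′ end.
miR-199a-3p: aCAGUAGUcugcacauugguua
miR-199a-5p: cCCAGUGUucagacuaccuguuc
miR-214: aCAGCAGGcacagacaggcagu
miR-214*: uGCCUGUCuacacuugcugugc
The 4 seeds all differ. miR-199b* had no mature entry. On its side the Mir199b hairpin holds a stretch nearly identical to miR-199a-5p, with the same seed, CCAGUGU. Between miR-199a-3p and miR-214 the seeds differ by 2 substitutions, U5C and U8G, counted from 1 at the 5′ end with the base of miR-199a-3p first. Over their full 22 bases, set side by side without gaps, the 2 miRNAs match at 8 positions. The miR-199a-3p sequence is listed at 3 loci. It comes from Mir199a-2 within Dnm3 and Dnm3os (chr1:162217883-162217904, plus strand), from Mir199a-1 within Dnm2 (chr9:21496498-21496519, minus strand) and, as miR-199b-3p with 0 differing bases, from Mir199b within Dnm1 (chr2:32318524-32318545, plus strand). A signal for miR-199a-3p therefore sums what these loci give. miR-199a-5p is listed at Mir199a-2 (chr1:162217844-162217866, plus strand) and Mir199a-1 (chr9:21496537-21496559, minus strand). miR-214 (chr1:162223438-162223459, plus strand) and miR-214* (chr1:162223397-162223418, plus strand) come from Mir214 alone.

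The 2 hairpins within Dnm3os are shown with their mature arms in capitals, since the members measured from them are compared with one another below. Mir199a-2 (chr1:162217814-162217923, plus strand) and Mir214 (chr1:162223368-162223477, plus strand) are 110 bases each in the table, with 5444 bases between them.
Mir199a-2: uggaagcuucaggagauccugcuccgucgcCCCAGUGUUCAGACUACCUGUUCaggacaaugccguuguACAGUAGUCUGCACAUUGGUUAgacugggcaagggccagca
Mir214: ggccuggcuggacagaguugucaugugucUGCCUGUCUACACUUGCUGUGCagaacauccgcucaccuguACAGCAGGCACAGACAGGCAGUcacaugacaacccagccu
Among the 1738 mature entries of the table, one further miRNA has the seed of a member. It is miR-761, which shares the seed of miR-214.
miR-761: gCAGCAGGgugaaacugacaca
On the array miR-761 had an intensity of 0 to 8 in the 12 samples and was too dim to be tested.

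Levels were read as normalized intensities, the brightness of a probe on a linear scale after the authors' normalization. Each sample summed to between 594311 and 636136, and its median miRNA had an intensity of 12 to 14. Genotypes were compared with limma on log2 intensities. The test covered the 370 miRNAs whose mean intensity reached 32, and all 5 members were in that set. Cy5 is given as the label of every WT mouse and Cy3 as that of every KO mouse, so that dye and genotype cannot be told apart. KO1 correlated less with the rest of its group (mean r of 0.848 across miRNAs) than KO2 to KO6 did (0.907 to 0.945). The WT mice lay at 0.949 to 0.970, above every KO mouse, so the KO samples were the more varied group across the tested miRNAs. miR-1a, the defining miRNA of striated muscle, was at 39535 to 51374 in WT and 40290 to 71199 in KO. Precision rests on the 6 mice of each group.

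None of the 5 members passed the test between KO and WT, at an adjusted or an unadjusted limma p of 0.05. By comparison, 1.35% of all miRNAs tested passed the adjusted and 19.5% the unadjusted threshold, the latter being 9.73% higher and 9.73% lower in KO. The member with the largest difference was miR-199a-3p, which was on average lower in KO. The other 4 had log2 differences of -0.18 to -0.02. All 5 differences were below 0, as were those of 56.8% of the 370 miRNAs, whose median was -0.08. In none of the 5 did the groups lie apart, which 2.43% of the miRNAs tested did.

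miR-199a-3p, the arm shared by the miR-199a and miR-199b hairpins, had intensities of 5752, 9969, 9663, 5123, 8715 and 6563 in WT1 to WT6 and of 4296, 4365, 4945, 5778, 6053 and 7914 in KO1 to KO6. The 3 lowest samples of the 12 were KO1, KO2 and KO3, and 5 of the 6 KO samples lay below the WT median of 7639, while KO6 lay above it. The groups overlapped. The mean was 7631 ± 2085 (SD, n = 6) for the WT mice, against 5559 ± 1359 (SD, n = 6) for the KO mice. The log2 difference of -0.44 (standard error 0.235, 95% interval -0.95 to 0.06, adjusted p = 0.320 from limma) had an interval that included 0. A two-sided exact permutation test over the 924 assignments of samples gave p = 0.0736, where 0.0022 is the smallest p this design allows. As a fold, KO over WT, the estimate was 0.735 with a 95% interval of 0.518 to 1.04. With a weight for each array, which counts samples that stand apart for less, the difference was -0.63 (adjusted p = 0.0272 from limma). That setting called 115 of the 370 miRNAs. Without WT4 or without KO6 the unadjusted limma p of miR-199a-3p was 0.0375 and 0.0344, with a log2 difference of -0.55 in each case, and neither passed after adjustment (adjusted p = 0.209 and 0.175).

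miR-199a-5p, the opposite arm of the miR-199a hairpins, was at 224, 293, 235, 186, 268 and 201 in WT1 to WT6 and at 398, 123, 155, 111, 283 and 312 in KO1 to KO6. The WT samples lay close together, while the KO samples spread beyond them on both sides, with KO2, KO3 and KO4 below every WT sample and KO1 and KO6 above every WT sample. The coefficient of variation was 17.2% in WT and 51.0% in KO, a difference that was not tested. Across all tested miRNAs, too, every KO sample correlated less with its group than any WT sample did. The WT mice averaged 234.5 ± 40.3 (SD, n = 6), and the KO mice 230.3 ± 117 (SD, n = 6). The log2 difference was -0.18 (standard error 0.319, 95% interval -0.86 to 0.51, adjusted p = 0.841 from limma), and it was -0.37 without KO1 (adjusted p = 0.402 from limma).

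miR-199b*, the arm opposite to the shared sequence in the miR-199b hairpin, was dim, with intensities of 28, 39, 28, 29, 68 and 19 in WT1 to WT6 and of 30, 15, 27, 15, 65 and 83 in KO1 to KO6. WT5, KO5 and KO6 stood above the rest of the samples, and the groups overlapped. The mean was 35.2 ± 17.3 (SD, n = 6) for the WT mice, against 39.2 ± 28.2 (SD, n = 6) for the KO mice. With a mean of 37.2 over the 12 samples it passed the minimum of 32 narrowly. Its log2 difference was -0.04 (standard error 0.448, 95% interval -1.0 to 0.93, adjusted p = 0.977 from limma), the widest interval of the 5 members. With values under 32 raised to 32 the difference was 0.17, so that it has no settled sign.

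miR-214 was at 13020, 9163, 9204, 10765, 8679 and 15018 in WT1 to WT6 and at 15294, 11860, 10049, 10979, 8305 and 8251 in KO1 to KO6. The groups overlapped over most of their range, with a mean of 10975 ± 2540 (SD, n = 6) for the WT mice against 10790 ± 2632 (SD, n = 6) for the KO mice. Its log2 difference was -0.03 (standard error 0.218, 95% interval -0.50 to 0.44, adjusted p = 0.973 from limma), a fold of 0.981 with an interval of 0.709 to 1.36. The exact permutation p was 0.874. Without KO1 the difference was -0.14 (adjusted p = 0.684 from limma). After quantile normalization the difference was 0.08, of the opposite sign.

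miR-214*, the opposite arm of the same hairpin, was at 36, 38, 43, 31, 26 and 49 in WT1 to WT6 and at 24, 54, 36, 35, 43 and 30 in KO1 to KO6. The lowest and the highest sample were both KO mice, so that KO spanned the WT range. The mean was 37.2 ± 8.23 (SD, n = 6) for the WT mice, against 37.0 ± 10.5 (SD, n = 6) for the KO mice. The log2 difference was -0.02 (standard error 0.233, 95% interval -0.52 to 0.48, adjusted p = 0.976 from limma), and 0.00359 with values under 32 raised to 32. Without KO1 it was 0.09 (adjusted p = 0.780 from limma), of the opposite sign. This member too passed the minimum narrowly, with a mean of 37.1.

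**Figure D1:**
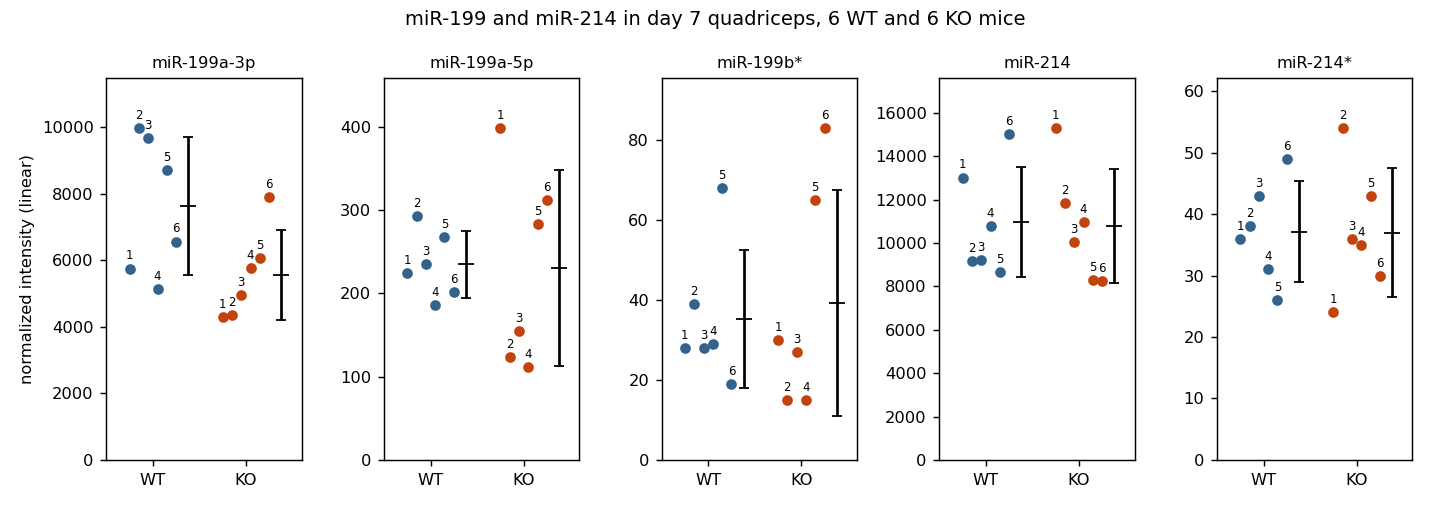
Normalized intensity (linear axis from 0) of the 5 members in each of the 6 WT (blue) and 6 KO (orange) mice, with the mouse number above each point and the mean ± SD as a black bar. The groups overlap in all 5 panels; miR-199a-3p has its 3 lowest values in KO, and miR-199a-5p spreads more widely in KO (111 to 398) than in WT (186 to 293).

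**Figure D2:**
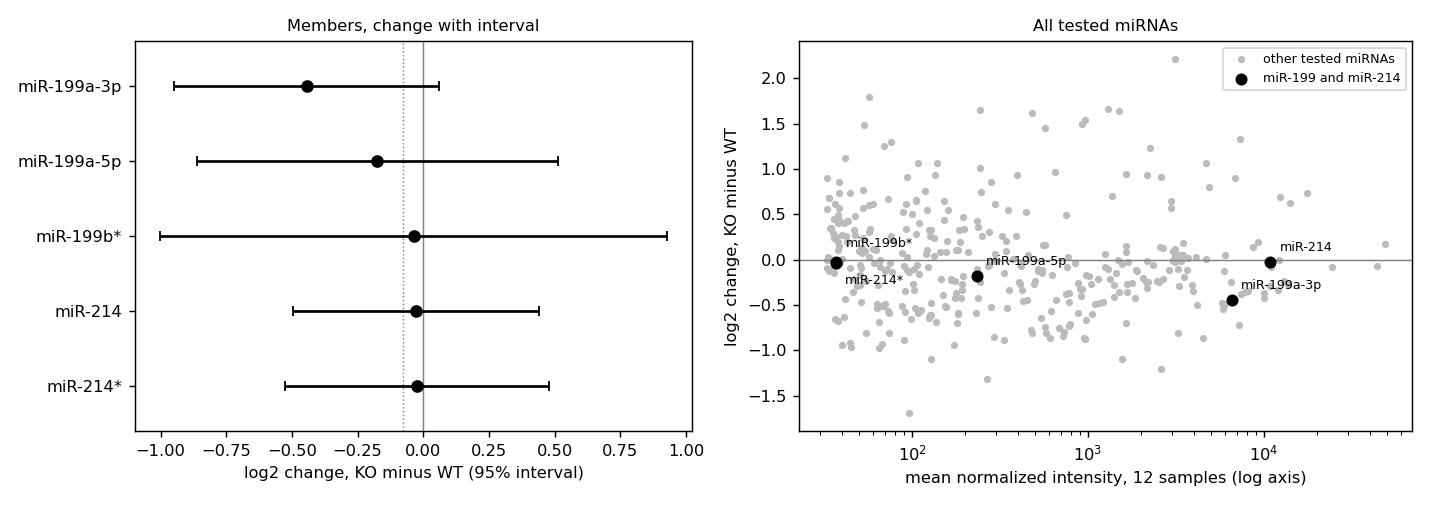
Left, the log2 difference (KO minus WT) of each member with its 95% interval from limma; the dotted line is the median of all 370 miRNAs tested, -0.08. Right, the same difference against mean intensity (log axis) for all miRNAs tested, with the 5 members in black. All 5 intervals include 0, and the members lie among the other miRNAs.

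The spread among mice of a genotype, as the residual SD of log2 intensity, ranged widely over the members. It was 0.373 for miR-199a-3p, 0.328 for miR-214 and 0.368 for miR-214*, at percentiles 20.8, 15.7 and 20 of the 370 miRNAs. It was 0.574 for miR-199a-5p, at percentile 54.9, and 0.855 for miR-199b*, at percentile 82.7. The 95% intervals of the KO minus WT difference reached down to -0.95 for miR-199a-3p, -0.50 for miR-214 and -0.52 for miR-214* on the log2 scale.

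Because Mir199a-2 and Mir214 lie in the same primary transcript, the members were next compared with one another within each sample. Any factor that scales a whole sample cancels in such a difference. For each of the 10 pairs, the within-sample log2 difference was compared between KO and WT by a two-sided exact permutation test. No pair passed the test. miR-199a-3p less miR-214 had a KO minus WT difference of -0.42 on the log2 scale (exact p = 0.281, adjusted p = 0.996 over the 10 pairs), and miR-199a-3p less miR-214* also gave -0.42 (exact p = 0.216). The arms of the miR-199a hairpins differed by -0.27 (exact p = 0.491) and the arms of miR-214 by -0.00446 (exact p = 0.996). The adjusted p was the same for all pairs. Without KO1 the difference of the miR-199a arms was -0.00869 (exact p = 0.961), the end nearest to 0 of a range that reached -0.463 as each sample was left out. That of miR-199a-3p less miR-214 was then -0.240 (exact p = 0.517).

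From mouse to mouse the arms of a hairpin did not track each other closely over all 12 samples. Over the 12 samples, Pearson's r of log2 intensities was 0.06 between miR-214 and miR-214* (permutation p = 0.849) and 0.36 between miR-199a-3p and miR-199a-5p (permutation p = 0.244). For the miR-214 arms r was 0.54 within WT (exact permutation p = 0.260) and -0.31 within KO (exact permutation p = 0.551). For the miR-199a arms r was 0.84 within WT and 0.22 within KO, as given with its tests below. miR-214* was dim, at 24 to 54, so a low r cannot show that these arms vary apart. The miR-199a-3p signal also sums more loci than that of miR-199a-5p. Of the 10 pairs, 3 had an unadjusted permutation p under 0.05 and none an adjusted one for r. The share among all pairs of tested miRNAs was not computed, so this count cannot be read as particular to the group. Even the highest r among the pairs put miR-199b* at rank 14 of 369 for miR-199a-5p. The values paired in each point of a correlation come from the same sample and share its normalization. Genotype was taken into account by repeating the correlation in WT and in KO.

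The most alike pair was miR-199a-5p and miR-199b*, the 5p arm of miR-199a and the star arm of its paralog, with r = 0.73 (permutation p = 0.00766, adjusted p = 0.0766 over the 10 pairs). As their sequences are nearly identical, they may not be independent measurements, and whether the probes tell them apart was not tested. Spearman's rho was 0.84 (permutation p = 0.00097, adjusted p = 0.0097). The value was 0.69 within WT (exact permutation p = 0.122) and 0.77 within KO (exact permutation p = 0.103). Without KO2 and KO4, the samples farthest from the median of miR-199a-5p, r was 0.51 (permutation p = 0.133). Without KO1 it was 0.86 (adjusted permutation p = 0.0102), and of the 12 runs that each left out 1 sample only this 1 passed.

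miR-214 went against the 3p arm of miR-199a and against miR-199b*. With miR-199a-3p its r was -0.60 (permutation p = 0.0431, adjusted p = 0.144) and its rho -0.62 (permutation p = 0.0348, adjusted p = 0.116). The r was -0.68 within WT (exact permutation p = 0.160) and -0.83 within KO (exact permutation p = 0.0417, adjusted p = 0.392), of the same sign in each genotype. Without WT2 and WT3, the samples farthest from the median of miR-199a-3p, it was -0.55 (permutation p = 0.0997). With miR-199b* the r was -0.67 (permutation p = 0.0166, adjusted p = 0.0832) and the rho -0.67 (permutation p = 0.0191, adjusted p = 0.0956). It was -0.78 within WT (exact permutation p = 0.0417, adjusted p = 0.148), -0.64 within KO (exact permutation p = 0.175), and -0.53 without WT5 and KO6 (permutation p = 0.119). This pair passed the adjusted threshold after median centring, with r = -0.79 (adjusted permutation p = 0.0295), and without KO1, with r = -0.77 (adjusted permutation p = 0.0305). Of the 12 runs that each left out 1 sample, only that 1 passed.

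In the arms of miR-199a, KO1 stood apart from the other mice. KO1 had the lowest miR-199a-3p of the 12 samples, 4296, and the highest miR-199a-5p, 398. Within WT the arms had an r of 0.84 (exact permutation p = 0.0444, adjusted p = 0.148) and within KO an r of 0.22 (exact permutation p = 0.693). Without KO1 the r over 11 samples was 0.72 (adjusted permutation p = 0.0439). KO1 was singled out by its values in this pair, so a higher r without it follows from the choice. Of the 12 runs that each left out 1 sample, only this 1 passed, with adjusted permutation p up to 0.649. KO1 was also the sample with the highest miR-214, 15294, and the lowest miR-214*, 24.

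**Figure D3:**
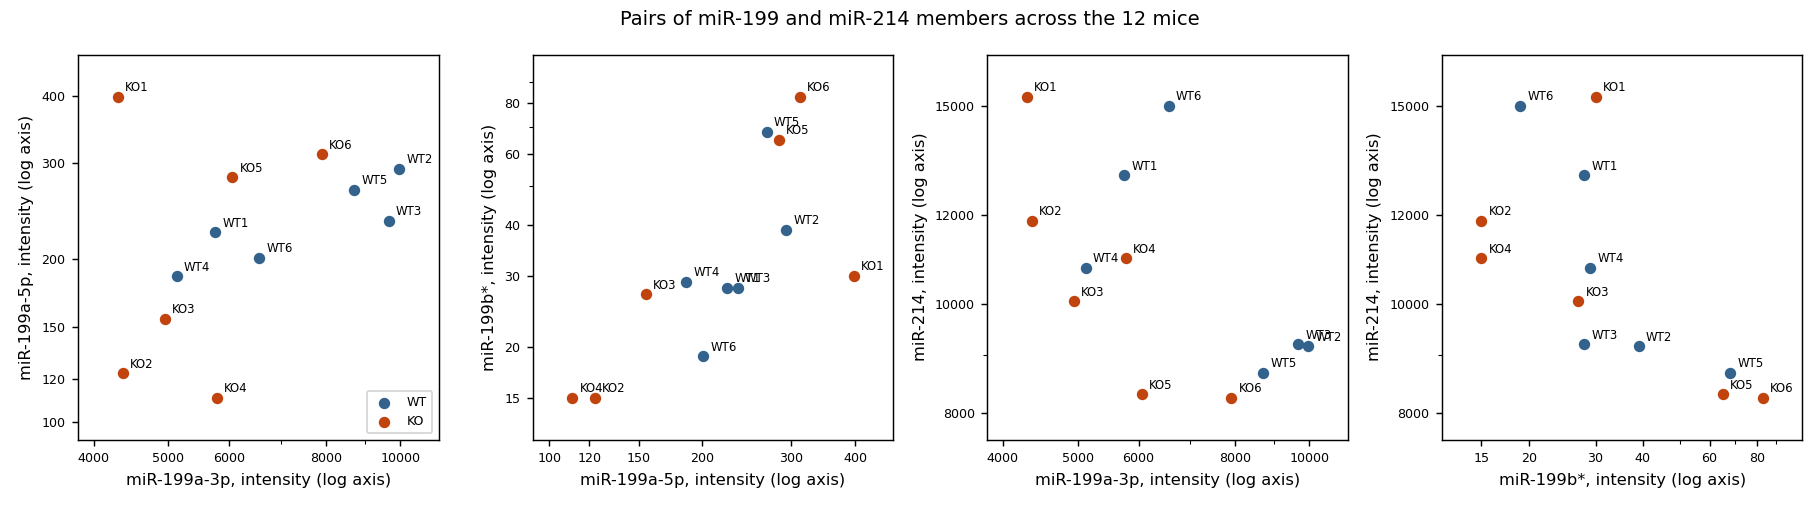
Intensities (log axes) of 4 pairs of members in the 12 mice, WT in blue and KO in orange, each point labelled with its mouse. miR-199a-5p and miR-199b* are high in the same mice (r = 0.73), miR-214 tends to be low where miR-199a-3p (r = -0.60) and miR-199b* (r = -0.67) are high, and KO1 stands apart from the other mice in the panel of the miR-199a arms.

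Each member had its highest r with a miRNA outside the group. As the highest of 365 outside miRNAs was set against a few other members, this outcome was likely from the start. In the order of Pearson's r with miR-199a-3p over the 12 samples, miR-199a-5p ranked 90 of the 369 other miRNAs tested, miR-199b* 63, miR-214* 198 and miR-214 352. The miRNA most like miR-199a-3p was miR-337-3p, with r = 0.97 (0.99 within WT and 0.98 within KO). miR-337-3p was at 48, 120, 126, 45, 108 and 66 in WT1 to WT6 and at 24, 26, 26, 50, 56 and 110 in KO1 to KO6. As for miR-199a-3p, KO6 was the highest of the KO mice and KO1 to KO3 were the lowest of the 12. Next came miR-434-3p (r = 0.91) and miR-543 (r = 0.90). Their log2 differences were -0.92 for miR-337-3p, -0.72 for miR-434-3p and -0.58 for miR-543, none past the adjusted threshold (adjusted p = 0.232, 0.170 and 0.430 from limma).

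For miR-199a-5p the 3 highest were miR-378* (r = 0.86), miR-455 (r = 0.83) and miR-154 (r = 0.83), and miR-199b* ranked 14 of 369. Within WT these 3 values were 0.46, 0.50 and 0.61, and within KO 0.94, 0.94 and 0.86. For miR-199b* they were miR-154 (r = 0.91), miR-496 (r = 0.89) and miR-433* (r = 0.86), with miR-199a-5p at rank 13. For miR-214 they were miR-674 (r = 0.96), miR-320 (r = 0.91) and miR-185 (r = 0.88). miR-674 ranged from 441 in WT5 to 1594 in KO1, with 1110 in WT1 and 1065 in WT6, the samples in which miR-214 was also highest. miR-199a-3p and miR-199b* ranked 334 and 351 of 369 in likeness to miR-214, near the bottom of the order. For miR-214* the highest were miR-700* (r = 0.94), miR-1306-3p (r = 0.88) and miR-346 (r = 0.87), and miR-214 ranked 147.

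The names at these 15 places were 14, as miR-154 appears under both miR-199a-5p and miR-199b*. Of the 14, 6 lie between Dlk1 and Dio3 on chromosome 12, an imprinted region with many miRNA genes, against 17.5% of the 365 tested miRNAs outside the group. They were miR-337-3p, miR-434-3p, miR-543, miR-154, miR-496 and miR-433*, and their shared place was noticed after the values were seen. Over the region as a whole the likeness varied. Its 64 tested miRNAs had r with miR-199a-3p from -0.74 to 0.97, with a median of 0.141, against a median of 0.0144 for the other miRNAs tested. The medians were 0.228 against 0.0169 for miR-199a-5p, 0.0842 against -0.0478 for miR-199b* and 0.0104 against -0.0216 for miR-214. For miR-214* the order was the opposite, with -0.136 against -0.00664, and 16 of the 64 had an r above 0.

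**Figure D4:**
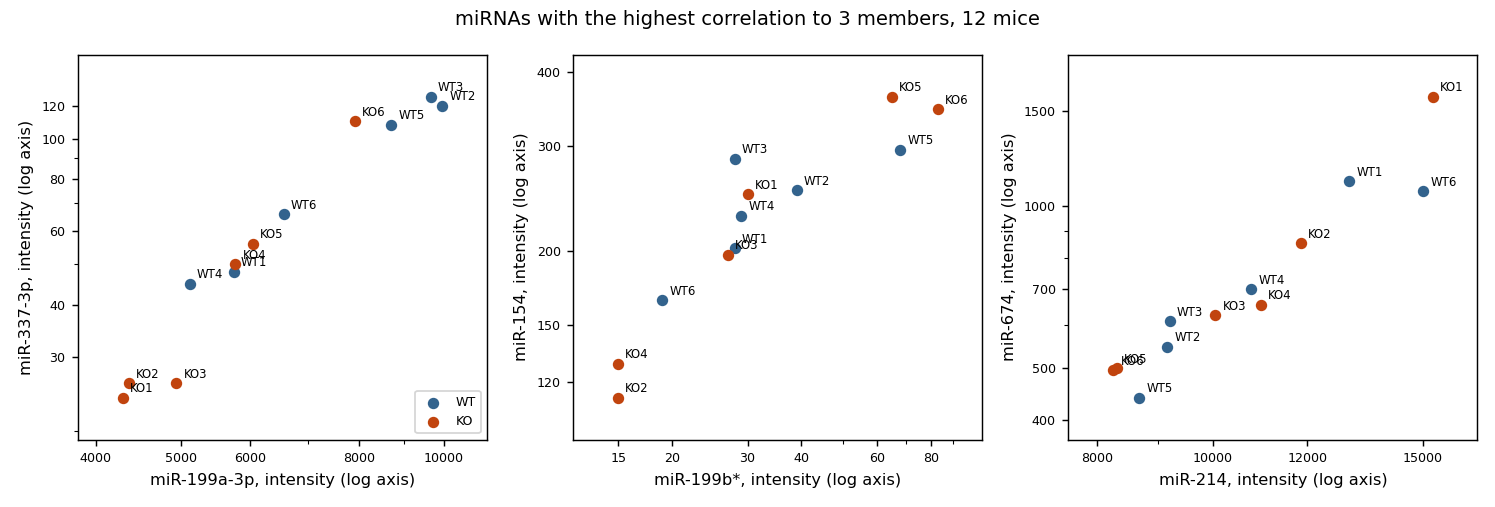
Intensities (log axes) of 3 members and of the miRNA with the highest r to each in the 12 mice, WT in blue and KO in orange. The points follow a line in each panel, with r = 0.97 for miR-337-3p, 0.91 for miR-154 and 0.96 for miR-674, and samples of both genotypes lie along it.

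The members were last set beside miRNAs known from the cell types of muscle. The fibroblast and vascular smooth muscle list held 12 further names, of which 9 were bright enough to be tested. None of the 9 passed the adjusted threshold. Of the 9, 2 passed the unadjusted one with lower values in KO, against 9.73% of all miRNAs tested. All 9 log2 differences were below 0, against 56.8% of all miRNAs tested, and their median was -0.60 against -0.08. The list was chosen with earlier results of these data known, so these shares are a description and not an independent comparison. The mean of miR-100 was 167.7 ± 32.5 (SD, n = 6) for the WT mice, against 88.0 ± 50.7 (SD, n = 6) for the KO mice, a log2 difference of -1.10 (adjusted p = 0.0955 from limma). That of miR-152 was 1997 ± 239 (SD, n = 6) for the WT mice, against 1296 ± 445 (SD, n = 6) for the KO mice, a log2 difference of -0.70 (adjusted p = 0.127 from limma). miR-143, abundant in vascular smooth muscle, had a log2 difference of -0.02 (adjusted p = 0.977 from limma), and miR-145 from the same transcript one of -0.60 (adjusted p = 0.261 from limma). miR-21, which rises in fibrosis, had a log2 difference of -0.60 (adjusted p = 0.714 from limma), its intensities being 35 to 370 in WT and 15 to 326 in KO. miR-29a, miR-29b and miR-29c, which lower collagens, were too dim to be tested. The summed intensity of the list was 6368 to 8313 in WT and 4810 to 9277 in KO, and its part in the levels of miR-199a-3p was not tested.

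The other lists were shorter. Of 5 muscle fibre miRNAs measured, miR-133a, miR-133b and miR-206 were tested and none passed either threshold. Their log2 differences were -0.35, -0.38 and -0.08, and the list summed to 35781 to 48034 in WT and 31264 to 44065 in KO. These counts and sums leave out miR-1a, which was brighter than any of the 3. Its log2 difference had the opposite sign, at 0.17 (adjusted p = 0.685 from limma). miR-208b and miR-499, which mark slow and cardiac muscle, were at 9 or lower and 30 or lower in every sample. The endothelial miR-126-3p was at 2230 to 4741 in WT and 760 to 2705 in KO, a log2 difference of -1.20 that passed the unadjusted threshold alone (adjusted p = 0.0615 from limma). Among the blood miRNAs only miR-451 of red cells was tested, with a log2 difference of -0.94 (adjusted p = 0.497 from limma), and the 6 blood miRNAs measured summed to 102 to 475 in WT and 51 to 372 in KO. The endothelial list summed to 2233 to 4745 in WT and 765 to 2709 in KO. The part of any of these in the levels of the miR-199 and miR-214 group was not tested.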

How the data were processed

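Total RNA of quadriceps was isolated with the mirVana kit and profiled at LC Biosciences on an array holding the mouse miRNAs of miRBase release 17. The authors deposited normalized intensities, linear whole numbers for 1096 miRNA names in 12 samples. The method of normalization, the background correction and the averaging of spots are not given in the sources used here, and they can change both differences and correlations. The 12 samples were grouped by genotype and number in their labels, 6 per group.

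Intensities were taken to log2 after setting any below 1 to 1, and miRNAs with a mean intensity under 32 were left out. Genotypes were tested in limma 3.58.1 under R 4.3.3 by lmFit and eBayes, two-sided, with Benjamini-Hochberg adjustment over 370 miRNAs and a threshold of 0.05. The fit and the permutation tests were tested on simulated data. Exact permutation tests enumerated every assignment of samples. Correlations over 12 samples used 100000 permutations, and those within a genotype all of them. Likeness was ranked by Pearson's r over the 12 samples, and the 3 highest outside the group were named for each member. Sequences and gene neighbours came from RefSeq tables of GRCm38.p6, in which 96.7% of the other tested names matched a gene. The muscle fibre list also held miR-1 and miR-486, for which no row of that name was used; miR-1a was added after the values were seen. Plots were drawn with matplotlib 3.10.9.

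The members and lists were chosen with earlier results of these data known. Alternative settings comprised raising values under 32 to 32, adding 50 before the log, testing all names, testing those of mean 500 or more, median centring, quantile and cyclic loess normalization, the replicate number as a block, array weights, a variance trend with robust estimation, the t-test that the methods name for the mRNA arrays, and leaving out each sample. The mRNA arrays and qRT-PCR were not analysed here.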

Additional observations from a re-analysis of the deposited data

How the results depend on the processing

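No member passed the adjusted limma threshold under any alternative except miR-199a-3p with array weights, at -0.63 (adjusted p = 0.0272). Its difference was below 0 throughout and lay between -0.55 and -0.36 when each sample was left out in turn. The sign of the other members was not settled. miR-199b* was at 0.17 with a floor of 32, 0.032 with a pseudocount of 50 and 0.061 after quantile normalization, miR-214 at 0.081 after quantile normalization, and miR-214* at 0.00359 with a floor of 32. Leaving out each sample gave -0.37 to 0.00124 for miR-199a-5p, -0.32 to 0.18 for miR-199b*, -0.14 to 0.069 for miR-214 and -0.14 to 0.092 for miR-214*. The 5 miRNAs called over all names became 14 with the pseudocount, 1 with no filter, 21 at a mean of at least 500, 8 after quantile normalization, 11 after cyclic loess, 115 with array weights and 14 with a variance trend and robust estimation. Leaving out a sample gave 3 to 49, the 49 without KO1. At an unadjusted p, the 72 became 123 with no filter, 45 at the higher minimum and 156 with array weights.

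Differences between members that turned sign were those of miR-199a-5p with miR-199b* (0.145) and miR-214* (0.108) after loess, miR-199b* with miR-214 with the floor (0.199) or pseudocount (0.0600), miR-199b* with miR-214* with the floor (0.167), pseudocount (0.0380) or quantile normalization (0.128), and miR-214 with miR-214* after quantile normalization (0.148) or loess (0.117). With each sample left out they ran from -0.345 to 0.0190, -0.459 to 0.114, -0.359 to 0.267, -0.343 to 0.320 and -0.227 to 0.117 in that order, and from -0.340 to 0.0410 for miR-199a-5p with miR-214. No difference between members passed the adjusted threshold in any setting. That of miR-199a-3p with miR-199b* was -0.41 in the main setting (exact permutation p = 0.331). It was -0.614 with the floor (exact permutation p = 0.0390, adjusted p = 0.390) and -0.472 with the pseudocount (exact permutation p = 0.0368, adjusted p = 0.335). The r of miR-199a-3p with miR-214* was 0.219 after median centring and 0.0343 after quantile normalization, and that of miR-199b* with miR-214 was -0.786 after median centring. Leaving out a sample gave r from 0.220 to 0.720 for the miR-199a arms, 0.660 to 0.861 for miR-199a-5p with miR-199b*, -0.771 to -0.606 for miR-199b* with miR-214, -0.286 to 0.263 for miR-199a-3p with miR-214* and -0.172 to 0.468 for the miR-214 arms. The cause of these shifts was not tested.

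The replicate numbers were shared by both groups, but same-numbered mice did not deviate together throughout (r from -0.453 to 0.594 over the 6 numbers). With the replicate block the adjusted p of miR-199a-3p was 0.330, the difference stayed at -0.44, and 4 miRNAs were called.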
